A study of Mus musculus with 43 samples.

Results

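The regions described here were 1708 H4R3me2a peaks of the P7 mouse testis that lay outside active chromatin. Each was a CUT&Tag peak of the replicate 1 list that overlapped, by at least 1 bp, a peak of replicate 2 or 3 and overlapped no peak of any of the 4 H3K4me3 and H3K27ac lists of the same age. They were thus chosen by the peak calls of 7 lists, and what those lists say of them is a description. They made up 10.05% of the 16995 peaks of replicate 1, and are called non-active regions below. The 2800 reproduced peaks that did overlap an H3K4me3 or H3K27ac peak, called active regions, and the 10276 peaks outside active chromatin that neither other replicate held, called unreproduced peaks, served for comparison.

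The study asked how the arginine methyltransferase Prmt1 shapes the male germline, and profiled 5 histone arginine methyl marks beside H3K4me3 and H3K27ac. The 33 peak lists, 935217 peaks in all, came from wild-type (WT) C57BL/6J testes at P7 (labelled spermatogonia) and P14 (titled spermatogonia but with spermatocyte as the cell type), except for 2 H4R3me2s lists from P7 Prmt1-dKO testes, in which the floxed Prmt1 alleles were deleted by the germ cell driver Ddx4-CreERT2 after 3 days of tamoxifen. H4R3me2a had 3 lists at each age, H4R3me2s 2 at P7 and 3 at P14, and each other mark 2 at each age. Expression came from 2 Smart-seq2 libraries of spermatogonia and 3 bulk RNA-seq libraries of testes, all of P7 and labelled WT. By the study's methods the control spermatogonia were sorted on the GFP of the Ddx4-CreERT2 allele from mice heterozygous for the floxed Prmt1 allele, so these carried the driver too. The study describes tamoxifen dosing before the RNA samples were taken, without setting controls apart. Whether the floxed allele was deleted in these controls was not tested. For CUT&Tag, the tubules were dissociated and the suspension was filtered to remove Sertoli cells, without sorting. The lists give no read totals, so the depth behind each peak is unknown. Nothing in the labels says that the lists of a group came from separate animals, so the spread between them may be technical.

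H4R3me2a is the asymmetric dimethylation of arginine 3 of histone H4, which PRMT1 deposits and which is commonly found at active promoters. H4R3me2s, the symmetric form of the same residue, is placed mainly by PRMT5 and is commonly linked to repression, and H4R3me1 is the monomethylated form. H3R2me2a and H3R8me2a are asymmetric marks of histone H3. H3K4me3 marks promoters and H3K27ac marks active promoters and enhancers. In CUT&Tag an antibody directs a transposase to the chromatin that carries its mark, and sequenced fragments pile up into peaks. In repeated sequence, fragments of many copies can be placed on few sites, so that a peak there need not be the place that carried the mark.

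In brief, the non-active regions were narrow, mostly distal or intronic, and weakly enriched. Of the 1672 that lay on assembled chromosomes, 363 (21.7%) were of low sequence uniqueness, meaning that under 50% of their 50-base words occurred once in the genome. About as large a share of the active regions was (19.7%), against 8.64% of the unreproduced peaks. Each other arginine mark overlapped between 16.3% and 30.4% of them at P7, and 568 (33.3%) were overlapped by at least 2 of the 3 H4R3me2a lists of P14.

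The sequences of several regions show what they were made of. All are given 5′ to 3′ on the plus strand of mm10, as windows of at most 300 bases around the summit or the feature shown. The first set shows how far the sequence of a peak was unique, with capitals for the bases that lay in no unique 50-base word. It holds the region of highest enrichment (chr15:47539805-47540050, distal), a region in Snhg14 on chromosome 7 (window chr7:59778835-59779134) whose words occurred a median of 22 times, a region of the most common repeat family (window chr11:46504162-46504461, median 1844.5 copies), and the promoter regions of Igf2 (window chr7:142667668-142667967) and Wnt8b (chr19:44491831-44492061), in which every base shown lay in a unique word. Only exact tandem units of up to 6 bases were scored, so longer or imperfect repeats, as in the Igf2 and Wnt8b sequences, were not counted as tandem runs.
Distal region of highest enrichment: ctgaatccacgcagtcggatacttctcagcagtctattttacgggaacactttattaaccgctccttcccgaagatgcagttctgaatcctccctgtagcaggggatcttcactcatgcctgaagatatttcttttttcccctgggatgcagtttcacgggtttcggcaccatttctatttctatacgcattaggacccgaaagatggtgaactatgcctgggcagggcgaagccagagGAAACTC
Snhg14 region: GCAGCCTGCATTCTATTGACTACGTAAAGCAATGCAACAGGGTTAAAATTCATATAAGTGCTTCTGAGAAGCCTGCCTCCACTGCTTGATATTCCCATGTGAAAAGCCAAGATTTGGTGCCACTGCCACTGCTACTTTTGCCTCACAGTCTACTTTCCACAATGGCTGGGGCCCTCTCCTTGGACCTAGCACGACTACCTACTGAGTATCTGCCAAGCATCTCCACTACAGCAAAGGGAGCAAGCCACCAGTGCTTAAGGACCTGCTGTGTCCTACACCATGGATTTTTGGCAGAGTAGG
Repeat family region: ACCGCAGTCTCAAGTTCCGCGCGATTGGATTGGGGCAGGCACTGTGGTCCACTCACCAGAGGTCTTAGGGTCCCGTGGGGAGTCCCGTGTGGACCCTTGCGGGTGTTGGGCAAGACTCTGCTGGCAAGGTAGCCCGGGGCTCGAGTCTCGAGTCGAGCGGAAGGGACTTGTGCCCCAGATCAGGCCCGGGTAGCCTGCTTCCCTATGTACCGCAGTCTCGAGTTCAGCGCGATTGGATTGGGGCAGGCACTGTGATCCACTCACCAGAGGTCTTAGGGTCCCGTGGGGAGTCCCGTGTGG
Igf2 region: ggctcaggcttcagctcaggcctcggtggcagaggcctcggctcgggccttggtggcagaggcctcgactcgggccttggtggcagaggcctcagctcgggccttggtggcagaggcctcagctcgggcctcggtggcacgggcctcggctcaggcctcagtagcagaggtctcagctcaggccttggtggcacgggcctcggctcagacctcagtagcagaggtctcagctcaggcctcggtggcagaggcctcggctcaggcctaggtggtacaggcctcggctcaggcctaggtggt
Wnt8b region: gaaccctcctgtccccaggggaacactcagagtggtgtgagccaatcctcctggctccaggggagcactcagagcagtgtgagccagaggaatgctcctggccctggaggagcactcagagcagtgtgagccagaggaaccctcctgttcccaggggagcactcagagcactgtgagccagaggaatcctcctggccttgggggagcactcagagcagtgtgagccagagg

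The second set shows nuclear copies of mitochondrial DNA, with capitals for bases in 50-base words shared with the mitochondrial genome. These are the regions in the pseudogenes Gm4076 (window chr13:85126961-85127260) and Gm11512 (window chr11:90538690-90538989, in an intron of Stxbp4), both among the 5 regions of highest enrichment.
Gm4076 region: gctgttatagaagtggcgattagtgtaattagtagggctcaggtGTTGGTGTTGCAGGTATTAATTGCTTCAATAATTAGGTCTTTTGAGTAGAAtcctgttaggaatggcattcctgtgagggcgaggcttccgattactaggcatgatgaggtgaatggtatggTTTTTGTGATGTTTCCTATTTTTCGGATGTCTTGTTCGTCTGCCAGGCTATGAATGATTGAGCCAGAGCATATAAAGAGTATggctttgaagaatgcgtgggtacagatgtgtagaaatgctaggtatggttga
Gm11512 region: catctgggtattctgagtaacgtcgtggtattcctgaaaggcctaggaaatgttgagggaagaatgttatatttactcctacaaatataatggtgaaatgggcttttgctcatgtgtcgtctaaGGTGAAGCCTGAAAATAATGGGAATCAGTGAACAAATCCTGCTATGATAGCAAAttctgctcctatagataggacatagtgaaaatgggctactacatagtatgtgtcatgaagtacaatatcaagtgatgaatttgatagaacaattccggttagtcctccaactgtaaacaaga

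The third set shows tandem repeats, with capitals for the longest uninterrupted run of a unit of 1 to 6 bases. It holds an AC repeat in an intron of Gna14 (window chr19:16447089-16447388) and a repeat of 5-base units on chromosome 8 (window chr8:115548123-115548422).
Gna14 region: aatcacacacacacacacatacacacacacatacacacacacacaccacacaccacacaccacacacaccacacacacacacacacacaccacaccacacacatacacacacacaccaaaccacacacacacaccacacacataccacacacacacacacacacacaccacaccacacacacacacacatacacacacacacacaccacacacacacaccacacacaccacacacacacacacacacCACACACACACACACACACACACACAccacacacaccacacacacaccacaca
Chromosome 8 region: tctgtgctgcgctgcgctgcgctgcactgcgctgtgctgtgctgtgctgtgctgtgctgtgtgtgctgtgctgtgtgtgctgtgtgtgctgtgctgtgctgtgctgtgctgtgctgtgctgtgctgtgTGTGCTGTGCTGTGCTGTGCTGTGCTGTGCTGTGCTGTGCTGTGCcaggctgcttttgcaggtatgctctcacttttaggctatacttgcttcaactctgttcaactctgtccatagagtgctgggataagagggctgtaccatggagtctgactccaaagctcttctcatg

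The non-active regions were mostly away from genes' starts. By the summit, 693 (40.6%) were distal intergenic, 611 (35.8%) intronic, 368 (21.5%) within 3000 bp of an annotated transcription start (promoter), 21 in other exons, 11 in 3′UTRs, 4 just downstream of a gene and 0 in 5′UTRs. The promoter share was below that of the active regions (44.0%), close to that of the unreproduced peaks (22.8%), and above the 15.5% of the genome that lies in such windows. It was 21.5%, 21.8% and 22.2% when the rule was started from replicate 1, 2 or 3 (SD 0.308). Within 250 bp of a start there were 32 (1.87%) of the non-active regions, against 22.6% of the active regions and 2.86% of the unreproduced peaks, and within 1000 bp 150 (8.78%), against 35.0% and 9.67%.

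**Figure D1:**
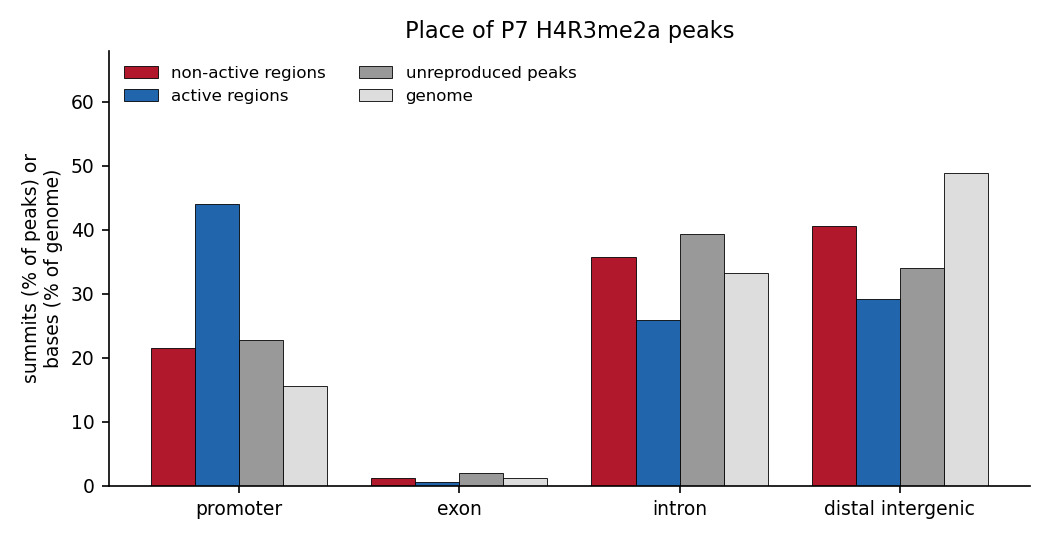
Percent of summits in each kind of place for the 1708 non-active regions, the 2800 active regions and the 10276 unreproduced peaks, beside the percent of the genome that each kind takes. The non-active regions had 21.5% of their summits in promoters, against 44.0% of the active regions, and 40.6% in distal intergenic sequence.

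Of the 368 promoter regions, 188 were nearest to a start of a protein-coding gene, 67 of a pseudogene (50 of them processed pseudogenes, which are reverse-transcribed copies of mRNAs), 37 of a lincRNA, 22 of a small nucleolar RNA (snoRNA), 19 of an antisense transcript and 7 of a miRNA. The distance to the nearest H3K4me3 or H3K27ac peak had a median of 13148 bp. It was at most 1 kb for 241 regions (14.1%) and over 10 kb for 943 (55.2%). At the edge of the rule, 2 regions in Sox5 (chr6:144535423-144535777) and Ankrd44 (chr1:54834335-54834534) lay 5 and 6 bp from an active peak, while 2 peaks left out (chr8:19961957-19962246 and chr2:10281889-10282301) overlapped one by 1 and 2 bp. The smallest overlap with another replicate was 1 bp, in Fgfr2 (chr7:130414249-130414485) and at chr8:10979797-10980115, and the nearest peaks left out, chr14:65767300-65767499 and chr6:117734026-117734324, had a gap of 0 bp.

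By chromosome, the regions were densest on chromosomes 8 (10.5 per 10 Mb), 17 (9.49) and 5 (9.13). Chromosome X held 19 (1.11%), for 6.18% of the genome, and 35 (1.25%) of the active regions, and Y held 7. Male diploid cells carry X and Y in single copy, which was not corrected for. A further 36 regions (2.11%) lay on 11 unplaced or unlocalized contigs, against 4.32% of the active regions and 0.331% of the unreproduced peaks, and their sequence was not analysed here.

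Of the 1019 1-Mb windows with a region, 637 held 1, 361 held 2 to 4 and 21 held at least 5, and the 9 windows with at least 7 held 95 regions. These 9 windows were as follows. All 19 regions at chr1:85026140-85625423, where Sp110 and Sp140 (nuclear body proteins) lie, were of low uniqueness, with a median of 11.5% unique words, and 2 of them were overlapped by at least 2 H4R3me2a lists of P14. All 14 at chr8:20017899-20947834, near AY761185, were of low uniqueness with a median of 0%, and 4 were held at P14. Of 13 at chr5:15043788-15689246, among Speer genes (a testis-expressed family), 12 were of low uniqueness and 8 were held at P14. All 9 in the snoRNA array of Snhg14 (chr7:59728965-59880896), a noncoding host transcript in an imprinted cluster, were of low uniqueness and 3 were held at P14. Windows with zinc finger genes on chromosome 4 held 10 regions (7 of low uniqueness, Zfp978 and Zfp991) at chr4:147095642-147734356 and 7 (4 of low uniqueness) at chr4:146169210-146741998. On Y, 4 of 7 regions at chrY:90721888-90825625, near Mid1-ps1, were of low uniqueness and 5 were held at P14. Low uniqueness was rarer in 2 windows. None of the 9 regions at chr13:56209034-56875280, around Trpc7, Slc25a48 and Fbxl21, was of low uniqueness, and 5 were held at P14. Of the 7 at chr14:118037866-118812919, around Abcc4, Dct and Cldn10, 2 were, with a median of 93.2% unique words, and 5 were held at P14.

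The regions were narrower and weaker than the active regions. Their median width was 279 bp (quartiles 213 and 381, range 200 to 1136), against 376 bp in active regions and 233 bp in unreproduced peaks. At the smallest width in the list, 200 bp, there were 344 (20.1%) of them, and 162 (9.48%) were wider than 500 bp, against 27.6% of the active regions. Fold enrichment over the local background, as the peak caller gave it for replicate 1, had a median of 3.23 (1.66 to 8.62), against 3.57 and 3.17 in the other sets. The median −log10 p was 4.37, and 253 regions (14.8%) had a q of at most 0.01, against 36.8% of the active regions. All 3 P7 lists held 361 regions (21.1%), while 654 were held by replicates 1 and 2 and 693 by replicates 1 and 3. Replication was less common outside active chromatin, where 14.3% of the 11984 peaks of replicate 1 met it, than among the 5011 that overlapped an active peak (55.9%).

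Median GC content was 49.0%, between the 41.7% of the genome and the 52.5% of the active regions, and equal within the spread over index lists (SD 0.506) to the 49.2% of the unreproduced peaks. The median observed over expected CpG was 0.158, against 0.268 in active regions and 0.179 in unreproduced peaks. Repeats set the regions apart more. A median of 40.5% of their bases was soft-masked (annotated as repeats), against 14.7% and 15.6% in the other sets and 36.4% over the genome, and 289 (17.3%) were masked throughout, against 8.29% and 7.32%.

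Signs that a peak may come from the placement of reads were scored from the sequence of the 1672 regions on assembled chromosomes. They were low uniqueness, a word shared with the mitochondrial genome, a tandem run and nearness to a run of N. Low uniqueness depended on the word length, at 14.4% of regions with words of 100 bases, and by the study's methods the reads were longer still. At least 1 sign was present in 657 regions (39.3%), close to the share of active regions (38.6%), against 20.04% of the unreproduced peaks, and 1015 (60.7%) had none. Of the 1672 regions, 150 (8.97%) had no unique 50-base word at all, against 5.56% of active regions and 4.11% of unreproduced peaks. A tandem run of at least 20 bases was found in 313 (18.7%), against 21.2% and 11.9%. Only 6 lay within 1000 bp of a run of N, against 69 active regions, and 3 shared a 50-base word with the mitochondrial genome, as did 3 active regions. Of the 26 lists that the rule did not use, at least 21 held 22 of the non-active regions (1.29%), 9 of them of low uniqueness, while 1089 active regions (38.9%) were that widely held. The rule itself left out any peak shared with a P7 active mark, so nothing is read from that difference. Whether any region resulted from read placement was not tested, since the lists hold no reads.

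**Figure D2:**
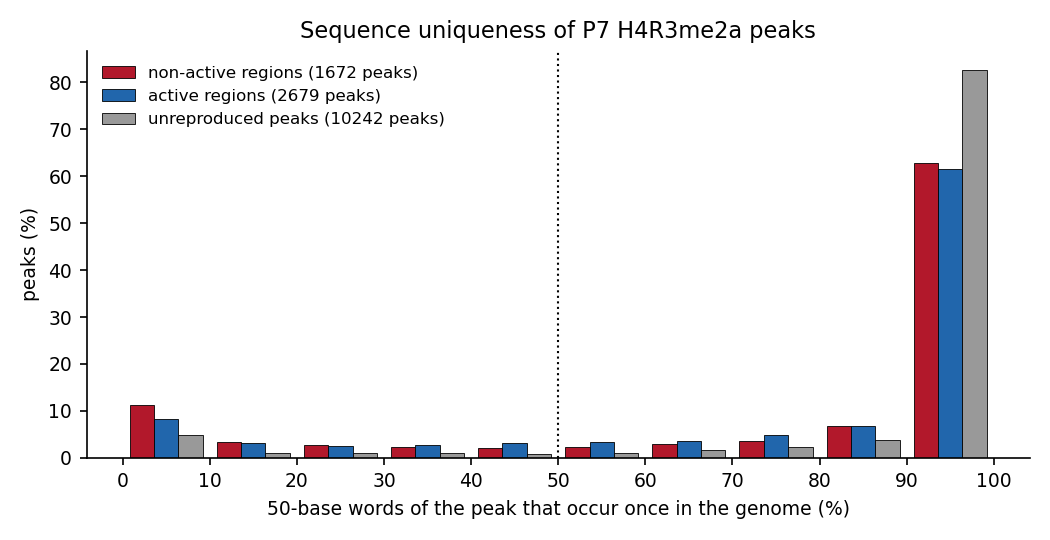
Distribution of the percent of a peak's 50-base words that occur once in mm10, in bins of 10 percentage points, for the 1672 non-active regions, 2679 active regions and 10242 unreproduced peaks with sequence (y axis, percent of each set). Left of the dotted line at 50% lay 21.7% of the non-active regions, 19.7% of the active regions and 8.64% of the unreproduced peaks.

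Low uniqueness had several forms. Of the 363 such regions, 172 had words with a median of 2 to 10 copies, 53 of over 10 to under 100, 31 of 100 to under 1000 and 107 of at least 1000, up to 13679. Regions with a median of at least 100 copies made up 8.25% of the non-active regions, 1.16% of the active regions and 3.44% of the unreproduced peaks, so high-copy sequence, unlike low uniqueness as a whole, was more common outside active chromatin. Of these 138 regions, 64 shared 50-base words in a GC-rich family (median GC 61.4%), and 41 shared words in a second family (42.2%, near the 41.7% of the genome). The word held by most regions of the GC-rich family was in 33 of them and occurred 3687 times in mm10, and that of the second family was in 16 and occurred 13822 times. The repeat family region printed above belongs to the GC-rich family, with capitals throughout since none of its words was unique.

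The families differed in their other marks. At P14, H3R8me2a lists overlapped 59.4 ± 2.21% (SD, n = 2) of the GC-rich family and 37.8 ± 5.17% of the second family, against 34.8% of all non-active regions. H4R3me2a lists overlapped 33.3 ± 0.902% and 13.8 ± 3.73% (n = 3), against 36.2%. The ranges over lists did not overlap in either mark. The same lists scored both families, so this spread does not measure the uncertainty that comes from only 64 and 41 regions. At P7, by contrast, H3R8me2a overlapped 41.4 ± 5.52% and 41.5 ± 3.45%. H3R2me2a overlapped few regions of either family at P7 (7.03 ± 7.73% and 4.88 ± 3.45%). At P14 it overlapped 23.4% and 42.2% of the GC-rich family in its 2 lists, and 4.88% of the second family in both.

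Among tandem runs, the dinucleotide AC made up 238 of 313 (76.0%), followed by AG (23). A run of 10 CA units, searched on both strands, lay in the 200 bp around the summit of 173 regions (10.3%), against 8.59% of active regions, 6.84% of unreproduced peaks and 1.94% of all 200-bp tiles of the genome. The telomeric unit TTAGGG in 2 successive copies on either strand was found in 5 (0.299%), against 1.94%, 0.0781% and 0.0104%. These are matches of letters only, and neither motif contains the other.

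The share of low uniqueness was higher under each of 4 stricter selections, in non-active and active regions alike. It was 25.9% when 50% of the peak had to be overlapped, 33.6% among the regions held by all 3 P7 lists, 38.2% with all lists cut at a q of at most 0.05 and 47.1% at 0.01 (74 of 157). In active regions the same steps gave 22.2%, 28.8%, 32.6% and 36.9%. Tandem runs did not follow, at between 18.2% and 22.0% in each of these steps.

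**Figure D3:**
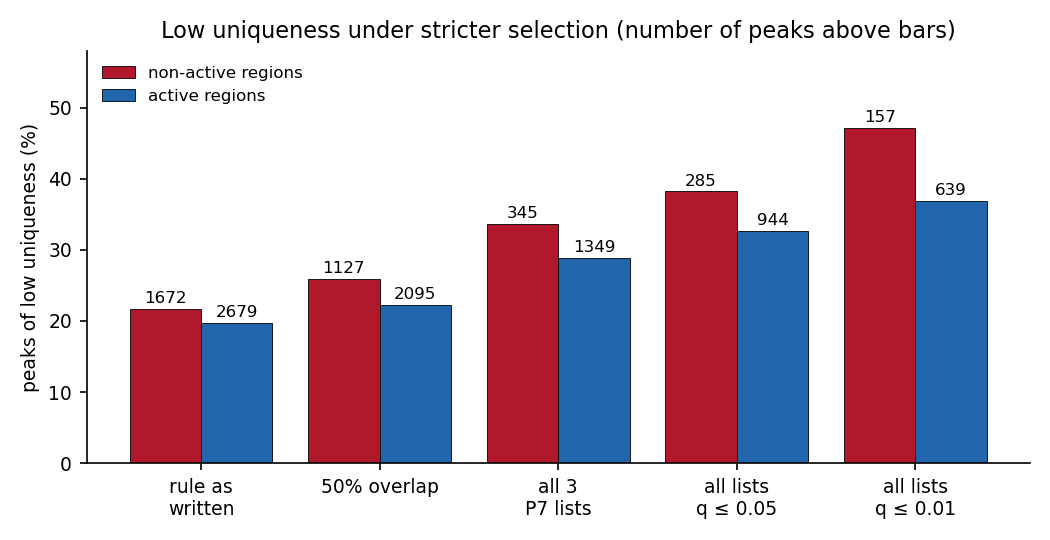
Percent of peaks of low uniqueness (y axis) among non-active and active regions, for the rule as written and 4 stricter selections, with the number of peaks with sequence above each bar. The share went from 21.7% to 47.1% in non-active and from 19.7% to 36.9% in active regions.

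The other arginine marks, which the rule did not use, overlapped part of the regions at P7. H4R3me1 overlapped 518 and 522 of the 1708 in its 2 lists (30.4 ± 0.166%), H3R8me2a 484 and 479 (28.2 ± 0.207%), and H3R2me2a 313 and 341 (19.1 ± 1.16%). H4R3me2s was less even, with 202 and 354 (16.3 ± 6.29%), its lists holding 19981 and 36145 peaks. Active regions were overlapped at 66.8%, 65.3%, 57.04% and 51.3% in the same order, and unreproduced peaks at 6.50%, 4.47%, 4.85% and 3.63%. Each list covered between 0.179% and 0.356% of the genome. Counting a mark as present when either list held it, 507 regions (29.7%) had none of the 4 marks, 446 had 1, 388 had 2, 232 had 3 and 135 (7.90%) had all 4. Among active regions 46.2% had all 4, and among unreproduced peaks 74.3% had none. Over all 26 lists outside the rule, a non-active region was held by a median of 5, an active region by 18 and an unreproduced peak by 1, and 150 regions (8.78%) were in none.

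**Figure D4:**
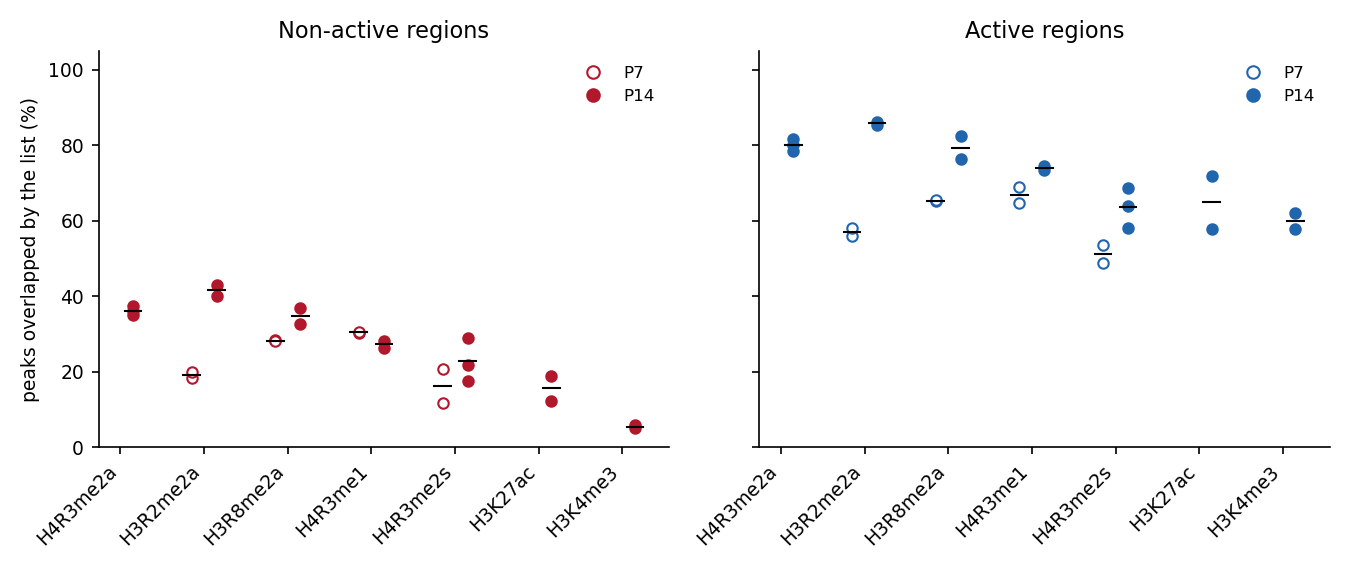
Percent of the 1708 non-active regions (left) and the 2800 active regions (right) overlapped by each WT list (points; open for P7, filled for P14), with the mean of each group as a line; marks that chose the sets at P7 are not drawn. Non-active regions lay lower than active regions in every group drawn, and from 5.09% to 43.0% against 48.9% to 86.1%.

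Uniqueness went with which marks were present. H3R8me2a lists of P7 overlapped 42.0 ± 0.584% of the regions of low uniqueness and 23.5 ± 0.216% of those of unique sequence, and H4R3me2s lists 28.0 ± 11.9% and 13.1 ± 4.54%. The ranges over lists did not overlap in either mark, but the same lists scored both classes, so this was no test between regions. Over the whole classes H4R3me1 differed little (30.99 ± 3.31% and 30.3 ± 0.972%), and H3R2me2a ran the other way (15.3 ± 2.92% and 20.4 ± 0.594%). Within low uniqueness both marks varied with copy number. The 172 regions of 2 to 10 copies had H4R3me1 at 37.8 ± 1.64% and H3R2me2a at 22.7 ± 1.64%, both above unique sequence. Those of at least 100 copies had H4R3me1 at 23.9 ± 3.07%. Regions of at least 100 copies had H3R2me2a at 5.80 ± 5.12%, H3R8me2a at 37.7 ± 2.05% and H4R3me2s at 18.1% and 42.0% in WT and at 37.7% and 45.7% in Prmt1-dKO, ranges that overlapped. Regions with AC runs had the most H4R3me1 of these classes, at 44.1 ± 4.16%.

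Prmt1 loss was profiled for H4R3me2s only. Its 2 dKO lists overlapped 323 and 248 regions (16.7 ± 3.10%), between the 2 WT lists. To allow for list length, the share of summits inside peaks was divided by the share of the genome that the list covered, here called the coverage ratio. It was 37.4 and 37.8 in WT and 37.6 and 38.4 in dKO, a difference of 0.351 (exact permutation test, two-sided, p = 0.667, adjusted p = 0.667 over 3 tests). With 2 lists against 2 the smallest p possible is 0.333, so this test could not have passed 0.05. The difference was not stable, at 58.4 with peaks of a q of at most 0.01 and -3.36 without regions of low uniqueness. In active regions the ratio was 145 in WT and 115 in dKO (exact permutation p = 0.667).

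At P14 3 of the 4 marks, all but H4R3me1, overlapped a larger mean share of the regions than at P7, and relative to the length of their lists all but H4R3me2s had a lower value. H3R2me2a overlapped 684 and 735 (41.5 ± 2.11%), H3R8me2a 558 and 631 (34.8 ± 3.02%), H4R3me1 481 and 451 (27.3 ± 1.24%) and H4R3me2s 496, 299 and 372 (22.8 ± 5.83%). The lists of P14 covered up to 0.791% of the genome. The coverage ratio went from 57.7 to 43.5 for H3R2me2a, from 111 to 62.6 for H3R8me2a and from 82.2 to 50.98 for H4R3me1, while for H4R3me2s it went from 37.6 to 56.4. No P7 value overlapped a P14 value in any of the 4 marks. Averaged over the marks the ratio changed by -18.8, from 72.1 to 53.4 (exact two-sided permutation of ages within marks, 2160 arrangements, p = 0.0458), which did not pass after adjustment over 3 tests (adjusted p = 0.138). Since P7 lists alone chose the regions, this comparison does not treat the ages alike, and selection and age cannot be told apart in it. Measured as the plain share of regions overlapped, the change had the opposite sign, 23.5% to 31.6% (8.09 percentage points higher, exact permutation p = 0.0329), so its direction rested on whether list length was allowed for. In active regions the ratio went from 214 to 160, and the log2 ratio of non-active over active regions changed by 0.07 between the ages (exact permutation p = 0.564, adjusted p = 0.667), a difference that was not detectable with these lists. The marks did not move alike, with changes of 0.55 for H3R2me2a, 0.14 for H4R3me2s, -0.03 for H3R8me2a and -0.38 for H4R3me1.

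H4R3me2a itself was found again at P14 at part of the regions. The 3 lists overlapped 615, 640 and 599 of them (36.2 ± 1.21%), against 80% ± 1.63 of active regions and 9.97 ± 0.502% of unreproduced peaks. None of the 3 held 662 regions (38.8%), 1 held 478, 2 held 328 and all 3 held 240. With the P14 lists cut to the 16995 best peaks, the length of the P7 index list, the mean share was 22.2%. Retention by at least 2 P14 lists was 55.4% among regions in all 3 P7 lists and 27.3% among those in 2, and 49.0% among those with a q of at most 0.01. It was 34.1% of unique and 31.7% of low-uniqueness regions, and near these shares in the GC-rich family (19 of 64 regions). In the second family it was lower, with 4 of 41. It was also 31.8% in promoters, 37.5% in introns and 30.4% in distal sequence, 41.6% with an AC run, and 6 of 36 (16.7%) on contigs. By the same measure, 81.96% of active regions and 6.17% of unreproduced peaks were retained.

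**Figure D5:**
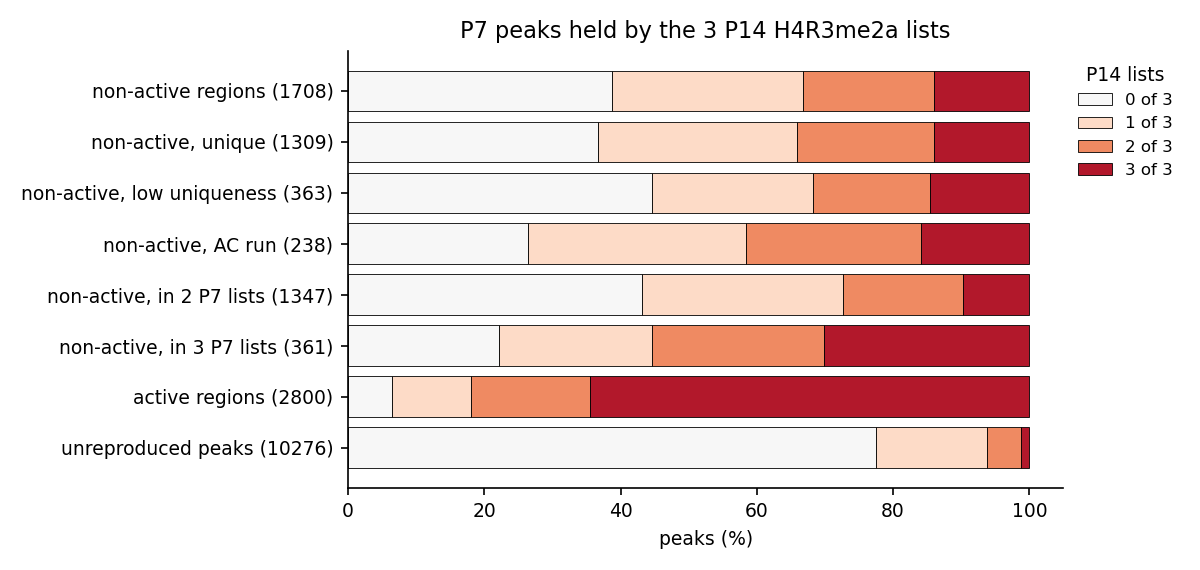
Percent of P7 peaks (x axis) held by 0, 1, 2 or 3 of the P14 H4R3me2a lists, for the non-active regions, 5 classes of them, the active regions and the unreproduced peaks (number of peaks in brackets). Held by at least 2 were 33.3% of the non-active regions, 55.4% of those in all 3 P7 lists, 81.96% of the active regions and 6.17% of the unreproduced peaks.

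By P14, 515 regions (30.2%) overlapped a peak of an active mark, which by the rule none did at P7. The share was 12.2% of unreproduced peaks, of which by the rule none did at P7 either, and 85.1% of active regions. H3K27ac accounted for 437 (25.6%, with 322 and 212 in its 2 lists) and H3K4me3 for 153 (8.96%, 87 and 100). Of the 568 regions retained at P14, 286 (50.4%) had an active mark there. Active marks of P14 were more common at regions within 1 kb of a P7 active peak (47.3% of 241) than at those over 10 kb away (25.8% of 943). The P14 lists of H3K27ac held 37984 and 45817 peaks, against 21974 and 23780 at P7, and the part of list length in these overlaps was not tested.

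The regions of highest enrichment were of different kinds. The distal region at chr15:47539805-47540050, printed above and 96.4% unique, had fold enrichments of 8.62 and 3.82 in replicates 1 and 2 and no peak in replicate 3 or at P14, and of the 26 lists outside the rule only an H3R8me2a list of each age held it. The Gm4076 region (chr13:85126753-85127367) had 7.54, 6.26 and 4.91 in the P7 replicates and 6.40, 6.31 and 6.91 at P14, in 19 outside lists. The Gm11512 region (chr11:90538612-90539189) had 7.18, 6.26 and 3.68 at P7 and 6.74, 6.64 and 5.87 at P14, in 17 lists. Next came a region on contig chrUn_GL456372 (7.18, 4.17 and 4.91, 14 lists) and a fully masked distal one at chr12:109288510-109288944 (6.82, 5.91 and 3.99, 9 lists, no P14 H4R3me2a). Fold enrichments are relative to the background of each library and were not tested between libraries.

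Both pseudogene regions are nuclear copies of mitochondrial DNA, as the capitals in their sequences show. Looking for such copies more widely, by at least 10 shared 20-base words, was decided after their values were seen. It gave 7 of 1672 non-active regions (0.419%), 4 active regions and 0 unreproduced peaks. The 7 were held by 11 to 19 outside lists, and all 7 by at least 2 H4R3me2a lists of P14. Their enrichments in replicate 1 ran from 3.28 to 7.54 with a median of 5.03. Besides Gm4076 and Gm11512 they were Gm11410 (chr4:80004799-80005061), where enrichment was 5.33, 6.73 and 6.06 at P7 and 7.75, 9.30 and 5.53 at P14, Gm28927, Gm13340 (10.2% unique) and 2 distal regions (chr3:6049680-6050010 and chr9:93175830-93176175). Except for Gm13340 at least 83.2% of their words were unique in the genome.

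The most widely held regions had peaks in 23 to 25 of the 26 outside lists. Being held by at least 21 of these lists was itself scored as a mapping sign. Whether these sites carried each mark was not tested. The Gna14 region (an intron of a G protein alpha subunit gene, chr19:16447050-16447388), the AC repeat printed above, was in 25 of 26 outside lists, with fold enrichments of 5.37, 3.33 and 3.91 at P7 and 3.53, 4.46 and 4.14 at P14. Its words were 83.4% unique. A region in the 3′UTR of Xkrx (chrX:134150133-134150441), a gene that lies within the annotated span of Nox1, was in 24 lists (4.31, 4.17 and 5.21 at P7). An intron of Dtd1 (chr2:144685834-144686362, 40.6% unique), an intron of the lincRNA 1700064J06Rik (chr10:119099360-119099782) and a distal region near Arhgap25 (chr6:87457126-87457842) were in 23 each. All 5 had H4R3me2a in 3 of 3 P14 lists and an active mark at P14.

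Among regions with a mapping sign, those of the best p were the following. The Gm10719 region (chr9:3019935-3020185) had no unique word, a −log10 p of 16.5 at a fold enrichment of only 2.19, and no peak in replicate 2. The Snhg14 region printed above (chr7:59778835-59779212) had enrichments of 6.15, 4.70 and 5.87 at P7, and of 4.98 and 4.84 in 2 of the P14 lists. The chromosome 8 repeat (chr8:115548086-115548431) had 5.23, 4.25 and 2.56 at P7 and was in 19 lists. A region in an intron of Dock2 (chr11:34544526-34545082), a Rac exchange factor gene, lay near a run of N but was 99.8% unique, with 6.46, 4.52 and 6.44 at P7 and no H4R3me2a peak at P14. The next near a run of N (chr7:59858107-59858372, in Snhg14) was 8.29% unique. It had 4.14 and 3.32 in P7 replicates 1 and 3 and was in 4 lists. A second region on a contig (chrUn_GL456383:38201-38486) had 4.98, 4.95 and 3.91 at P7 and was in 19 lists. The repeat family region (chr11:46503945-46504701), in 22 lists, had 5.74, 4.52 and 4.91 at P7 and 4.38, 6.31 and 5.18 at P14.

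Of the promoter regions of protein-coding genes, 17 were in all 3 P7 and at least 2 P14 lists of H4R3me2a. The 10 of them held by the most outside lists (13 to 21) were at AY761185, Dnah8 (an axonemal dynein heavy chain), Ttc39c, Npr3 (a natriuretic peptide receptor), Opa1 (a mitochondrial fusion GTPase), Gm47283, U90926, Atp13a4 (a P-type ATPase), Wnt8b (a Wnt ligand) and Gm21190. Of these, AY761185 (7.10% unique words), Dnah8 (12.7%), Gm47283 (0%) and Gm21190 (20.7%) were of low uniqueness. The Gm21190, Ttc39c, Opa1, AY761185 and Gm47283 regions lay only 50, 99, 153, 206 and 620 bp from a P7 active peak. The others lay at least 3891 bp away, and of all non-active regions 14.1% lay within 1 kb. The Wnt8b region, 89.0% unique, had even and low enrichments (2.69, 2.86 and 3.06 at P7, and 2.804, 3.32 and 3.70 at P14). That of U90926 was 100% unique, with 3.82, 3.82 and 3.68 at P7. Their genes were expressed at all levels. In the 2 Smart-seq2 libraries of sorted spermatogonia labelled WT, Ttc39c was at 23.4 and 22.8 TPM, Opa1 at 7.84 and 11.6, Dnah8 at 6.73 and 6.55 and Gm47283 at 151 and 211, while Npr3, Atp13a4 and AY761185 were at 0 in both. In the 3 bulk libraries of WT testes Npr3 was at 6.46, 6.91 and 6.71 and Atp13a4 at 4.80, 3.51 and 4.27. Gm47283 shares its sequence with near copies, so its reads could be split among them.

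Igf2, an imprinted growth factor gene, was the only gene of the lists examined with a non-active region in its promoter. The region (chr7:142667518-142667967) lay 1045 bp upstream of a start, was 100% unique, and had fold enrichments of 2.99 and 2.96 in replicates 1 and 3 with no peak in replicate 2. Its −log10 q in replicate 1 was only 0.508. At P14 it had 3.90, 3.602 and 2.84, without any H3K4me3 or H3K27ac peak. At P7 both H3R2me2a lists held it, but only 1 of the 2 lists each of H3R8me2a, H4R3me1 and H4R3me2s. Igf2 was at 36.6 and 19.1 TPM in sorted spermatogonia and at 207, 180 and 208 TPM in testes, where the number of cells of a type and the RNA per cell cannot be told apart. It was 1 of 15 imprinted genes. None of 12 spermatogonial stem cell genes, 10 differentiation genes, 22 meiosis genes, 15 spermatid genes and 9 arginine methyltransferase genes had such a region, where active regions lay at Taf4b, Carm1 and Prmt9. Over all genes 0.787% had a non-active and 2.95% an active region in the promoter.

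Of the 437 genes with a non-active region in the promoter 427 had expression values, and 36.1% had a mean of at least 1 TPM in Smart-seq2 (32.3% and 31.1% in the single libraries) and 39.1% in bulk RNA-seq (39.1%, 38.4% and 39.1%). Genes with an unreproduced peak in the promoter reached higher shares, 44.7% and 49.7%, genes with an active region 69.3% and 72.4%, and all genes 26.8% and 28.1%. Among protein-coding genes alone the shares were 65.0% and 75.2% of 206, against 85.6% and 92.0% with an active region and 53.7% and 62.6% of all.

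As a check of the labels, H3K4me3 was present in both P7 lists at the promoters of 9 of 10 germ cell markers (all but Dnd1), but also at 8 of 8 Sertoli markers, 2 of 4 peritubular markers (Acta2 and Myl9), 0 of 6 Leydig markers and 0 of 4 macrophage markers. It was present at 60.5% of all protein-coding genes. In Smart-seq2 the germ cell markers summed to 2937 and 3044 TPM, the Sertoli markers to 272 and 244, the peritubular markers to 5.41 and 37.7, the Leydig markers to 6.97 and 0.12 and the macrophage markers to 0 and 0. None of these genes had a non-active region in the promoter. The part of Sertoli cells in the peaks was not tested.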

How the data were processed

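CUT&Tag peaks of P7 and P14 mouse testes were analysed as the authors deposited them. Per the submitters' processing notes reads were trimmed with fastp 0.23.2 and peaks were called with MACS2 2.1.0 on mm10, separately for each sample. The peak names give a p of 0.005 as threshold for 29 lists and a q of 0.05 for the 4 H3K4me3 lists. Each deposited list gives a peak's fold enrichment, a ratio over the local background of its library, and its −log10 p and −log10 q. The authors obtained the deposited TPM with STAR and RSEM, whose annotation is not given in the sources used here. Only WT RNA libraries were used.

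Summits were placed on 141862 transcripts of GENCODE vM21, and sequences and 50-base words were read from RefSeq's GRCm38.p6 (the mm10 build). A word counted as unique when it occurred once on either strand. The regions, the gene lists and the tests were chosen with earlier results of these data known. Overlap meant at least 1 bp, and no test was run over peaks. Lists were compared by exact permutation tests, which were tested on simulated data, at a threshold of 0.05. Named regions are the 5 of highest enrichment, the 5 held by the most lists outside the rule, the 2 of best p for each mapping sign, 10 at promoters of protein-coding genes in all 3 P7 and at least 2 P14 lists, those at genes of the lists, and those at the edges of the rule; the mitochondrial-like regions were chosen after their values were seen. Alternatives changed the index list, the replication, the overlap, the thresholds, the active lists, the promoter window, the word length and the list length, and left out each list in turn. Python 3.11.15, numpy 2.4.6, pandas 2.3.3, scipy 1.17.1, numba 0.67.0 and matplotlib 3.10.9 were used.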

Additional observations from a re-analysis of the deposited data

How the results depend on the processing

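The number of non-active regions, 1708 by the rule, was 361 with both other replicates required, 298 and 169 with all lists cut at a q of 0.05 and 0.01, 99 with only H4R3me2a cut at 0.01, and 2581 where an active peak had to be in both lists of a mark. It was between 1015 and 2089 with 1 list left out, at 1089, 1054 and 1015 without H4R3me2a replicate 1, 2 or 3, which leaves 1 pair of lists. Under the same settings in the same order, the promoter share (21.5%) was 18.6%, 20.1%, 25.4%, 21.2% and, for the last setting, unmoved, the median width (279 bp) 319, 312.5, 349, 306 and 292 bp, the median GC (49.0%) 48.5%, 48.0%, 46.6% and 46.5%, the share of low uniqueness (21.7%) 33.6%, 38.2%, 47.1%, 45.7% and 21.0%, the share of H4R3me2a at P14 (36.2%) 54.5%, 43.6%, 42.8%, 56.6% and 45.01%, and the share with an active mark at P14 (30.2%) 41.8%, 42.6%, 44.97%, 44.4% and 41.9%. The mean share held by the other arginine marks at P7 (23.5%) was 39.2% with both replicates, 51.6% with H4R3me2a cut at 0.01, 31.2% with stricter active peaks and 16.5% by the summit.

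With 50% overlap the promoter share was 20.1%, the width 266 bp, low uniqueness 25.9%, P14 H4R3me2a 37.5% and P14 active marks 31.2%. With active peaks kept 1000 bp away these were 20.3% in promoters, 22.1%, 34.6% and 27.3%, and with P14 active lists excluded 22.0% in promoters, 267 bp, a GC of 48.4%, 22.0% of low uniqueness and 28.1% with P14 H4R3me2a. Starting from replicate 2 gave a GC of 50% and 34.9% with P14 H4R3me2a, and from replicate 3 22.2% in promoters, 284 bp, 21.9% and 29.5% with an active mark. Without low uniqueness 23.05% were in promoters, and 8.78% with a 1000-bp window. Words of 36 and 100 bases gave 26.6% and 14.4% of low uniqueness. P14 H4R3me2a was 26.0% by the summit and 22.2% at equal list length. At 0.5 and 5 TPM, 38.2% and 26.7% of genes were expressed in Smart-seq2 and 43.3% and 30.9% in bulk RNA-seq. Leaving out 1 list or library gave 20.4% to 22.3% in promoters, 280 to 286 bp, a GC of 48.7% to 50%, 21.2% to 23.9% of low uniqueness, 23.8% to 27.3% for the other marks, 35.5% to 40.2% with P14 H4R3me2a, 30.9% to 35.6% with a P14 active mark, and 31.1% to 32.3% and 38.2% to 39.8% of genes expressed.

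The change of the coverage ratio with age (-18.8) was 8.09 as a plain share, -15.3 at equal list length (exact permutation p = 0.0676), -52.3 with peaks of a q of at most 0.01 (exact permutation p = 0.0157) and -38.0 with regions that need both other replicates (exact permutation p = 0.0356). With the replicate number as a block it was -19.2 (exact permutation p = 0.0938). The replicate numbers are only shared numbers, and replicate 1 lay on the same side at both ages in 2 of 3 marks. Without 1 list it was between -20.9 and -16.7 (exact permutation p between 0.0389 and 0.0806), over 0.05 without either list of H3R8me2a or H4R3me1 at either age, or without P14 H4R3me2s replicate 1 or 2. The change relative to active regions (0.07) was -0.23 at equal list length, 0.36 with peaks of a q of at most 0.01, 0.01 with both other replicates needed and between -0.01 and 0.15 without 1 list, at -0.0056 without P7 H4R3me2s replicate 1, and the dKO difference (0.351) was 58.4 with peaks of a q of at most 0.01 (exact permutation p = 0.333, the smallest possible), 3.44 at equal list length, 2.20 with both other replicates needed, -3.36 without low uniqueness and between -0.06 and 0.77 without 1 list, at -0.064 without dKO replicate 2. The cause was not tested for any of these shifts, other than that stricter selections hold fewer peaks. The share with a P14 active mark when those lists are excluded, and the share of low uniqueness without such regions, are 0 by construction and were not run. List length limits every share given, since read depth is unknown. Peak names of the P14 H4R3me2s lists read day 17, while their titles give day 14.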
